A study of Mus musculus with 15 samples.

Results

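Triacylglycerol stored in the hepatocyte is broken down either at the surface of the lipid droplet or inside the lysosome. On the droplet, Pnpla2 (adipose triglyceride lipase) removes the first fatty acid, Lipe (hormone-sensitive lipase) the next and Mgll (monoacylglycerol lipase) the last, and Mgll also breaks down an endocannabinoid. Lipa, the lysosomal acid lipase, hydrolyses triacylglycerol and cholesteryl esters delivered to lysosomes. The remaining enzymes share the patatin-like fold of Pnpla2: Pnpla3 is a lipid droplet protein whose human counterpart is linked to fatty liver, Pnpla6 and Pnpla7 are lysophospholipases of the endoplasmic reticulum, and Pnpla8 is a calcium-independent phospholipase A of mitochondria and peroxisomes.

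The expression of these 8 genes, of 18193 genes measured, was examined in mouse liver after a high-fat diet, plain or with added coffee. The genes were taken by name as patatin-like phospholipases and neutral lipases. The group was selected on array values, since Pnpla7 had differed between the decaffeinated and caffeinated coffee diets, so that this difference is described here and not tested. The 8 genes were represented by 16 probe sets of the 34945 that carried 1 gene symbol. Every gene had at least 1 probe set, and no filter on low signal was applied, so all 8 entered each test.

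All animals were male C57BL/6J mice, 7 weeks old at the start and fed for 9 weeks. The groups received a high-fat diet (60 kcal% fat) containing 2% freeze-dried green unroasted caffeinated coffee (HFGC), the same diet with 2% decaffeinated coffee (HFDC), the same diet with 2% caffeinated coffee (HFCC), the high-fat diet alone (HF), or a normal diet with 10 kcal% fat (ND). Each group was represented by 3 arrays of whole liver RNA, from mice that the study's methods describe as randomly selected within a larger group. The fit had 10 residual degrees of freedom. Whole liver was used, so fewer cells of a type and less RNA per cell cannot be told apart.

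Values are log2 intensities of the brightest probe set of each gene, on which a difference of 1 is a doubling. An array intensity depends on its probes, so levels were compared between groups for 1 probe set and not between genes. A gene was called when its adjusted p was below 0.05 (limma, Benjamini-Hochberg over all 18193 genes, two-sided). Comparisons against HF share the 3 HF arrays, and comparisons against ND share the 3 ND arrays, so their results for a gene are not separate evidence.

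The arrays resembled each other closely, with correlations of 0.987 to 0.997 between any pair and no identical pair. Of the 6 hepatocyte markers listed, 4 were measured, and their summed level was 16.43 to 16.49 on the log2 scale in all 15 arrays. The arrays differed in RNA quality, read as the 3' minus 5' log2 signal of control transcripts. This value was 0.70 to 0.89 in HFGC, 0.86 to 1.06 in HFDC, 0.84 to 1.07 in HFCC, 1.08 to 1.40 in HF and 0.83 to 0.95 in ND. The 3 HF arrays therefore lay above all the others. Gene-level results against HF are thus given below also with this value as a covariate where the call depended on it.

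Pnpla7 was low in HFGC, HFCC and HF livers and high in HFDC and ND livers. Its levels were 10.44, 10.53 and 10.47 in HFGC, 11.23, 11.01 and 11.06 in HFDC, 10.10, 10.09 and 10.39 in HFCC, 10.65, 10.34 and 10.39 in HF, and 11.25, 11.25 and 11.09 in ND. Every HFDC and ND array lay above every HFGC, HFCC and HF array. The group means were 10.48 ± 0.05 in HFGC, 11.10 ± 0.11 in HFDC, 10.19 ± 0.17 in HFCC, 10.46 ± 0.17 in HF and 11.20 ± 0.09 in ND (SD, n = 3 each). In the order of means, ND and HFDC were neighbours whose arrays overlapped, as did HFGC and HF, while the HFCC arrays overlapped with those of HF but not with those of HFGC.

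**Figure D1:**
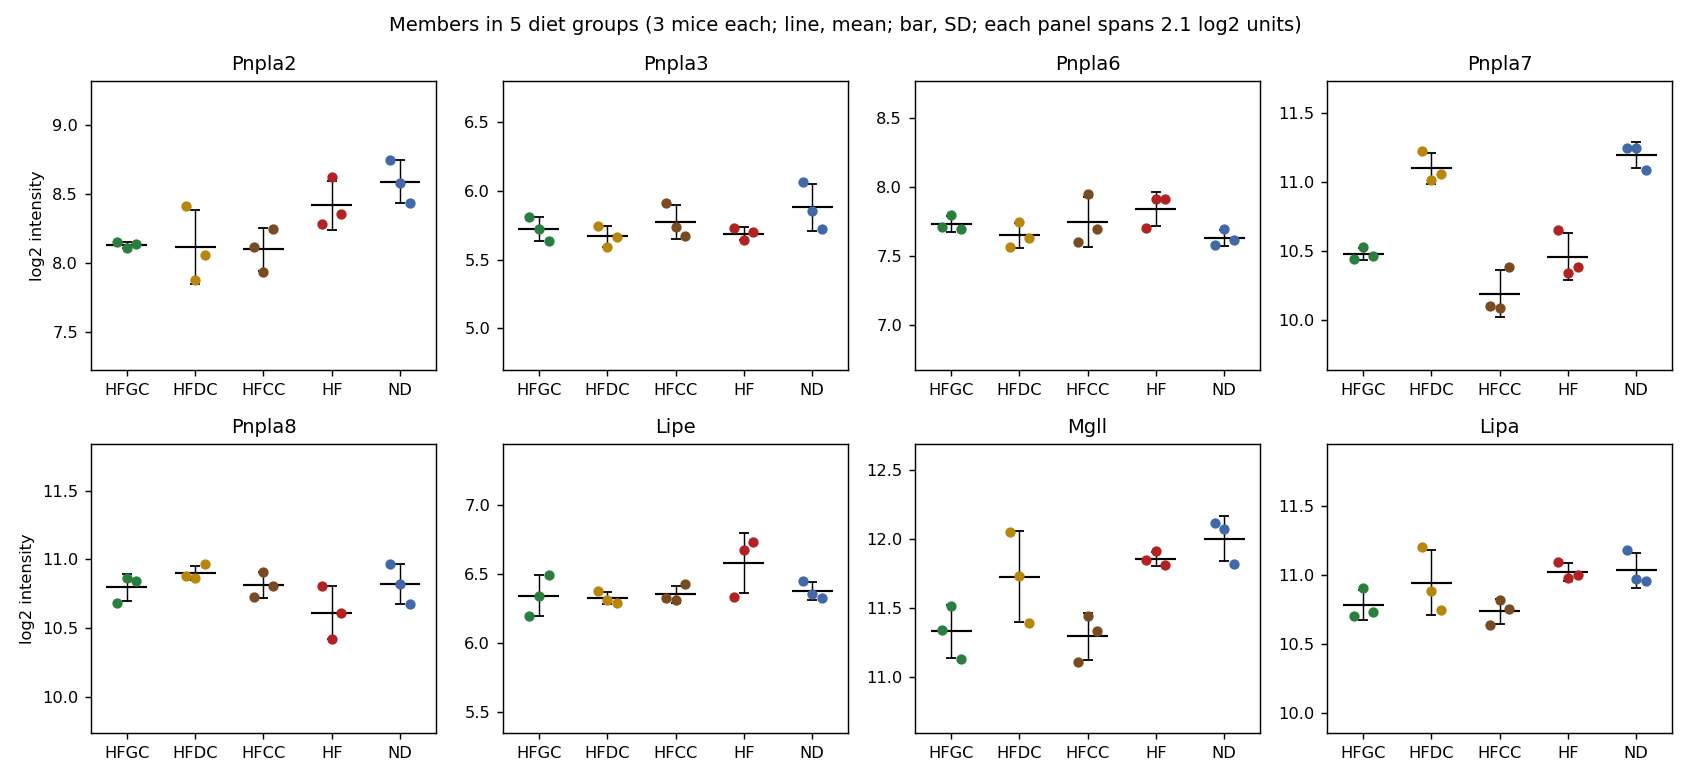
Log2 intensity of the brightest probe set of each of the 8 genes (vertical axis) in each array, by group in the order HFGC, HFDC, HFCC, HF and ND; points are arrays and bars are group means with SD (n = 3). For Pnpla7, all HFDC and ND arrays lie above all HFGC, HFCC and HF arrays.

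Between high-fat and normal diet, which share no array with the difference that drew attention to Pnpla7, the gene was 0.60-fold in HF relative to ND (log2 difference -0.74, SE 0.10, adjusted p = 0.0011, limma). It was the only member of the 8 called in this comparison, against 13.5% of all genes. The call was kept without each of the 15 arrays in turn, with log2 differences of -0.83 to -0.68 and a highest adjusted p of 0.0092. When the RNA quality value entered the model, the difference was -0.61 and the adjusted p was 0.104, so the call was lost.

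The green coffee diet gave a like contrast with the normal diet. Pnpla7 was 0.61-fold in HFGC relative to ND (log2 difference -0.72, SE 0.10, adjusted p = 0.0026, limma), and this was kept without each array in turn. In HFGC and HF the levels did not differ beyond the spread of the arrays: the log2 difference was 0.02, with a 95% interval of -0.19 to 0.23 and an adjusted p of 0.95 (limma).

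The comparisons of Pnpla7 that use the HFDC or HFCC arrays are given as values with no p, since those arrays chose the gene. Pnpla7 was 1.88-fold in HFDC relative to HFCC, a log2 difference of 0.91 with an SE of 0.10, and the HFDC arrays all lay above the HFCC arrays. Leaving out 1 array at a time moved this log2 difference over 0.85 to 1.01. Among the other 7 genes, the HFDC minus HFCC log2 difference was 0.43 for Mgll, 0.21 for Lipa, and between -0.11 and 0.09 for Pnpla2, Pnpla3, Pnpla6, Pnpla8 and Lipe. Across all genes, 0.0934% were called between HFDC and HFCC. Against HF, Pnpla7 differed by 0.64 in HFDC and by -0.27 in HFCC on the log2 scale. Against ND it differed by -0.10 in HFDC and by -1.005 in HFCC. The HFGC level stood between those of the other coffees, with a log2 difference of -0.62 from HFDC and 0.29 from HFCC.

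Pnpla7 and Mgll were the members called in at least 1 comparison, and the E-box letters CACGTG were found in the promoter windows of both. The E-box is bound by basic helix-loop-helix factors such as the sterol and carbohydrate regulators Srebf1 and Mlxipl. The sequences shown are the RefSeq windows before the gene start (build GRCm38.p6, + strand, chr2:24975783-24975989 for Pnpla7 and chr6:88724162-88724411 for Mgll), with the E-box in capitals.
Pnpla7: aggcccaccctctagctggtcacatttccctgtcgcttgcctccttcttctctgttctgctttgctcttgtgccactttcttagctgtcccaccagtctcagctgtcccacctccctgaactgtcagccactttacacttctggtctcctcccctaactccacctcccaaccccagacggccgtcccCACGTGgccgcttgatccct
Mgll: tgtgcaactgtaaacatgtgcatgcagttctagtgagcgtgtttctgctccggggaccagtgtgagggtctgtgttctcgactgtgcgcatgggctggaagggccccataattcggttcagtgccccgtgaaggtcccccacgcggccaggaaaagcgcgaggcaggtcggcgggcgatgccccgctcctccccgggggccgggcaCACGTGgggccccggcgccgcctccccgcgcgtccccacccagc
The E-box began 20 bases before the annotated gene start in Pnpla7 and 44 bases before it in Mgll. In Pnpla7 the start site of the RefSeq window lies 43 bases after the gene start, and the sequence shown ends at the gene start. Over both strands, CACGTG was present in 6.02% of 32851 promoter windows of 250 bases, and in 3 of the 12 windows that covered the 8 genes (Lipe, Mgll and Pnpla7, with 1 window each). The forkhead letters GTAAACA were present in 3.17% of all windows and in 2 of the 12 (Lipe and Mgll). The nuclear receptor motif AGGTCA was present in 14% of all windows, and its direct repeat with 1 base between, bound by PPAR with RXR and containing the single motif, in 0.0335%. Neither was found in the 12 windows. These matches describe letters and were not tested for binding.

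Mgll had lower levels in HFGC and HFCC livers than in HF and ND livers, with HFDC spread between them. Its levels were 11.34, 11.51 and 11.13 in HFGC, 12.05, 11.73 and 11.39 in HFDC, 11.11, 11.44 and 11.33 in HFCC, 11.85, 11.91 and 11.81 in HF, and 12.12, 12.08 and 11.82 in ND. All HFGC and HFCC arrays lay below all HF and ND arrays, whereas the HFDC arrays overlapped with each of the other groups. The mean was 11.33 ± 0.19 in HFGC, 11.73 ± 0.33 in HFDC, 11.29 ± 0.17 in HFCC, 11.86 ± 0.05 in HF and 12.003 ± 0.16 in ND (SD, n = 3 each).

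With the 3 coffee groups combined against HF, Mgll was 0.75-fold (log2 difference -0.41, SE 0.12, adjusted p = 0.040, limma). It was the only member of the 8 called there, against 10.3% of all genes. The call was lost in 8 of the 15 fits that left out 1 array (without HF replicate 1, 2 or 3, HFCC replicate 1 or 3, HFDC replicate 2, or HFGC replicate 1 or 3), where the adjusted p reached 0.197. When the RNA quality value entered the model, the log2 difference was -0.28 and the adjusted p was 0.612. The mean of all Mgll probe sets differed by -0.21 (adjusted p = 0.191), and with probe sets averaged Lipa was the 1 member called.

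For each coffee group alone, the log2 difference of Mgll from HF was -0.53 in HFGC (0.69-fold, SE 0.14, adjusted p = 0.057), -0.13 in HFDC (adjusted p = 0.645) and -0.56 in HFCC (0.68-fold, SE 0.14, adjusted p = 0.058, limma). No member was called in HFGC against HF, where 3.09% of all genes were called, nor in HFCC against HF, where 1.64% were. At an unadjusted p below 0.05 there were 4 of the 8 members in HFGC against HF, where 20.6% of all genes were, and 4 of the 7 other than Pnpla7 in HFCC against HF, where 18.4% were. In HFDC against HF, none of these 7 was called, where 5.02% of all genes were, and 3 of the 7 had an unadjusted p below 0.05, against 22.7%. Between HFGC and HFDC the log2 difference of Mgll was -0.40 and was not called (0.76-fold, SE 0.14, 95% interval -0.70 to -0.09 before adjustment, adjusted p = 0.57, limma).

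Against the normal diet, Mgll was 0.63-fold in HFGC (log2 difference -0.67, SE 0.14, adjusted p = 0.033, limma) and 0.61-fold in HFCC (log2 difference -0.71, SE 0.14, adjusted p = 0.018). In HFGC, Mgll and Pnpla7 were the 2 members called, where 1.45% of all genes were called. In HFCC, Mgll was the 1 called of the 7 members other than Pnpla7, where 2.78% of all genes were called. The Mgll call in HFGC was lost without ND replicate 1 or 2 or any single HFGC array, where the adjusted p reached 0.104, and in HFCC without ND replicate 1 or HFCC replicate 1, where it reached 0.0845. In HFDC against ND, no member was called and 0.533% of all genes were, while 2 of the 7 members other than Pnpla7 had an unadjusted p below 0.05, against 14.2% of all genes. Mgll differed by -0.15 between HF and ND (95% interval -0.45 to 0.16, adjusted p = 0.55).

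**Figure D2:**
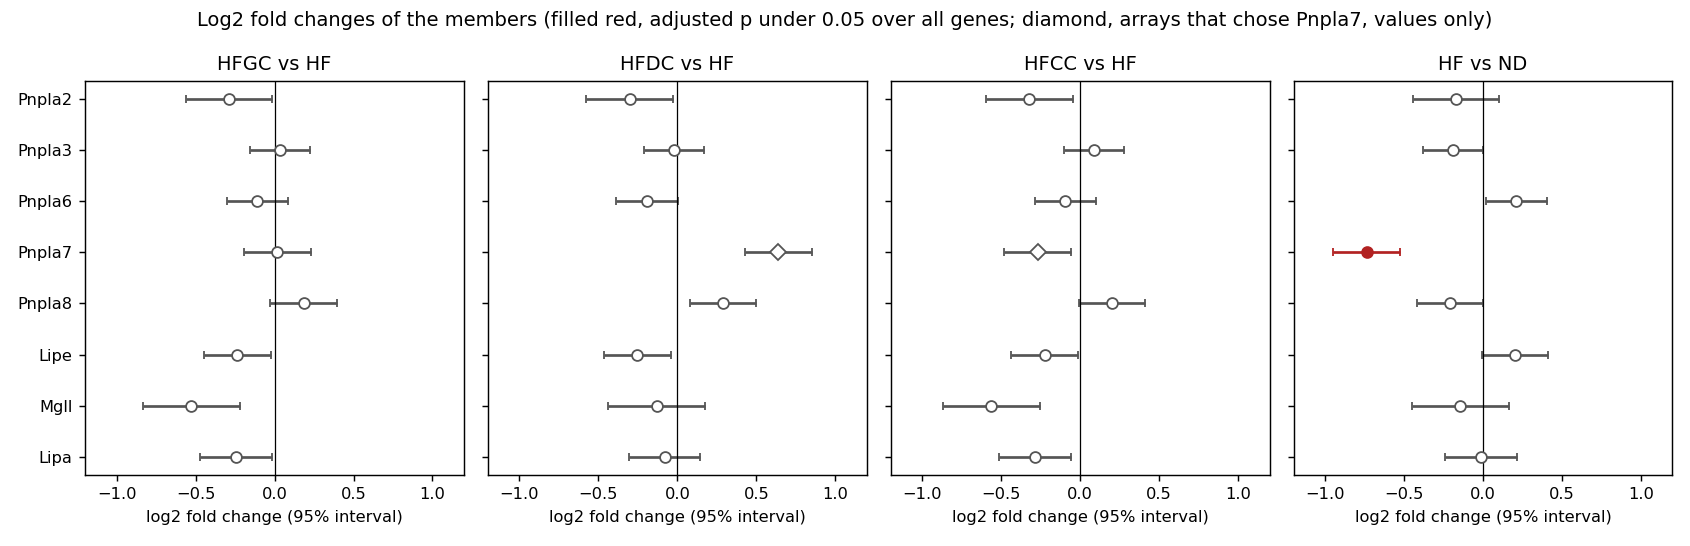
Log2 differences of the 8 genes in HFGC, HFDC and HFCC against HF and in HF against ND (horizontal axis), with unadjusted 95% intervals; diamonds mark Pnpla7 in comparisons whose arrays chose the gene, given as values only. Pnpla7 lies at -0.74 in HF against ND and near 0 in HFGC against HF, and Mgll lies near -0.5 in HFGC and HFCC against HF.

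Mgll was measured by 4 probe sets. The 3 bright ones moved together over the 15 arrays (r = 0.95 to 0.99), and the dim probe set 1431331_at did not follow them (r = 0.08 to 0.18). Against HF, 1431331_at stood higher in each coffee group, by 0.17 in HFGC, 0.35 in HFDC and 0.11 in HFCC. In the coffee groups together it was higher by 0.21. Probe set 1453836_a_at differed from HF by -0.33 in HFGC, -0.43 in HFCC and -0.23 in the coffee groups together. In HFDC against HF, where the brightest differed by -0.13, 1453836_a_at differed by 0.07. None of these differences of the 2 probe sets from HF was called. In a fit on all 34945 probe sets, 1426785_s_at and 1450391_a_at were both lower in the coffee groups together than in HF, by log2 differences of -0.41 and -0.40 (adjusted p = 0.044 and 0.045, limma); 9.19% of all probe sets were called. Both were also lower in HFGC than in ND (-0.67 and -0.80, with 1.11% of all probe sets called), and with 1453836_a_at they were lower in HFCC than in ND (-0.71, -0.82 and -0.76, with 2.09% called).

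Lipa was measured by 3 probe sets, which did not give the same call. Its brightest probe set, 1450872_s_at, read 10.70, 10.90 and 10.73 in HFGC, 11.20, 10.88 and 10.74 in HFDC, 10.64, 10.82 and 10.75 in HFCC, 11.10, 10.97 and 10.996 in HF, and 11.18, 10.97 and 10.95 in ND. All HFGC and HFCC arrays lay below all HF arrays, but no comparison was called, and the log2 differences from HF were -0.24 in HFGC (adjusted p = 0.21) and -0.29 in HFCC (adjusted p = 0.15, limma). Probe set 1423141_at read 7.94, 7.93 and 7.61 in HFGC, 8.51, 7.95 and 7.82 in HFDC, 8.17, 8.36 and 8.11 in HFCC, 8.70, 8.64 and 8.55 in HF, and 8.33, 8.30 and 8.81 in ND.

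Every coffee array of 1423141_at lay below every HF array. In the fit on all probe sets it was lower in HFGC than in HF (log2 difference -0.80, SE 0.16, adjusted p = 0.026, against 3.36% of all probe sets), and lower in the coffee groups together than in HF (-0.59, SE 0.13, adjusted p = 0.018, limma). Probe set 1423140_at was lower in the coffee groups together by -0.35 (SE 0.10, adjusted p = 0.049). The fit on all probe sets, used for Mgll above too, was not repeated with the RNA quality value or without single arrays. Whether these probe set calls depend on either was not tested. The correlations among the 3 Lipa probe sets over the 15 arrays were 0.64 to 0.90.

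**Figure D3:**
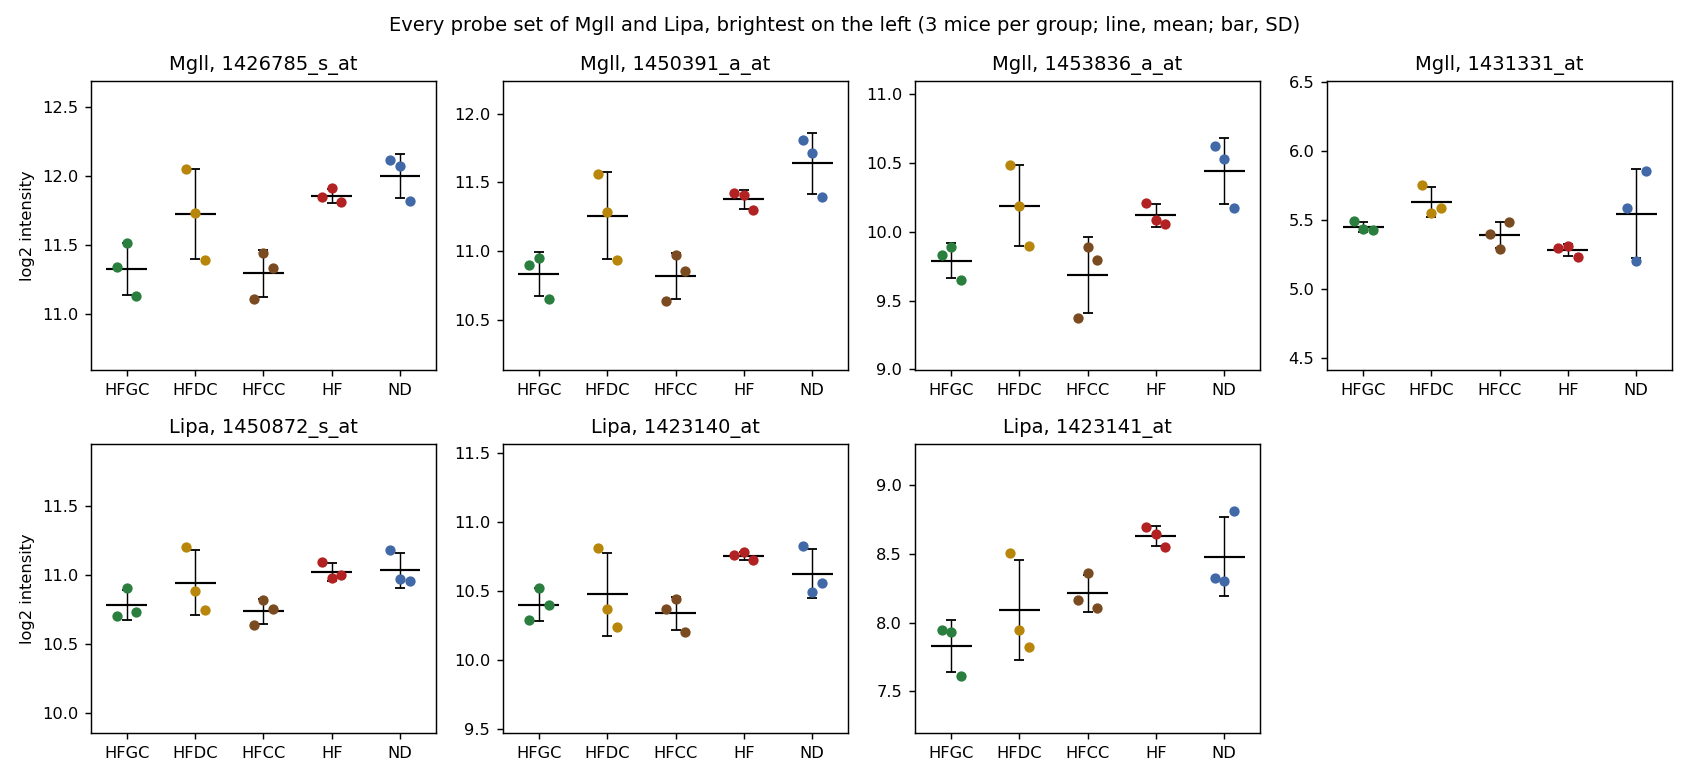
Log2 intensity (vertical axis) of each Mgll and Lipa probe set in each array, by group in the order HFGC, HFDC, HFCC, HF and ND, with group means. The 3 bright Mgll probe sets are low in HFGC and HFCC, and Lipa probe set 1423141_at is below its HF level in every coffee array.

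Pnpla2, which starts droplet lipolysis, had lower means in the 3 coffee groups than in HF or ND, with no comparison called on the brightest probe set in the fit used throughout. Its levels were 8.15, 8.11 and 8.14 in HFGC, 8.41, 7.88 and 8.06 in HFDC, 8.12, 7.94 and 8.24 in HFCC, 8.28, 8.62 and 8.36 in HF, and 8.75, 8.58 and 8.44 in ND. The HFGC and HFCC arrays lay below all HF arrays, and the arrays of each coffee group lay below all ND arrays. The log2 difference from ND was -0.46 in HFGC (0.73-fold, adjusted p = 0.092), -0.47 in HFDC (0.72-fold, adjusted p = 0.108) and -0.49 in HFCC (0.71-fold, adjusted p = 0.056, limma), each with an SE of 0.13. The HFCC difference from ND was called when the RNA quality value entered the model (-0.52, adjusted p = 0.036), with a filter at the median level (adjusted p = 0.0445), with cyclic loess (0.0476) and with the trend and robust options of limma (0.0482). From HF it was -0.29 in HFGC, -0.30 in HFDC (0.81-fold, SE 0.13, adjusted p = 0.18) and -0.32 in HFCC (0.80-fold, SE 0.13, adjusted p = 0.19). For the coffee groups together it was -0.30 (0.81-fold, SE 0.10, adjusted p = 0.078), and -0.09 when the RNA quality value entered the model (adjusted p = 0.871). The mean of both probe sets differed by -0.12 there (adjusted p = 0.385). The second, dim Pnpla2 probe set was uncorrelated with the first (r = -0.02). It differed from HF by 0.04 in HFGC, 0.06 in HFDC and 0.11 in HFCC, with none called.

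Thus Pnpla2, Mgll and Lipa each had all arrays below those of HF in both HFGC and HFCC. No overlap with HF in the downward direction was seen for 3 of the 8 genes in each of these comparisons, against 13.5% of all genes in HFGC and 14% in HFCC, and for 0 of the 8 in HFDC, against 15.2%. The median log2 difference from HF over the 8 genes was -0.17 in HFGC, -0.11 in HFDC and -0.25 in HFCC. Over all genes the medians were 0.01, 0.01 and -0.01. The 8 include Pnpla7, which was chosen on the HFDC and HFCC arrays. Over the 7 other genes the medians were -0.24 in HFGC, -0.13 in HFDC and -0.23 in HFCC. The direction was not shared by all: Pnpla8 had a higher mean in each coffee group than in HF.

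Pnpla8 read 10.69, 10.86 and 10.84 in HFGC, 10.88, 10.87 and 10.96 in HFDC, 10.73, 10.91 and 10.81 in HFCC, 10.81, 10.42 and 10.61 in HF, and 10.97, 10.82 and 10.68 in ND. The HFDC arrays lay above the HF arrays, by a log2 difference of 0.29 that was not called (adjusted p = 0.097, limma). Its 2 probe sets correlated with r = 0.54. Lipe read 6.33, 6.68 and 6.73 in HF, with means of 6.34 in HFGC, 6.33 in HFDC, 6.35 in HFCC and 6.38 in ND. Replicate 1 of HF stood with the other groups and the remaining HF arrays above them.

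Pnpla6 averaged 7.73 in HFGC, 7.65 in HFDC, 7.75 in HFCC, 7.84 in HF and 7.63 in ND, and its HF arrays all lay above its ND arrays (log2 difference 0.21, adjusted p = 0.137, limma). Pnpla3 averaged 5.72 in HFGC, 5.67 in HFDC, 5.77 in HFCC, 5.69 in HF and 5.88 in ND, and its arrays lay between 5.59 and 6.06. It was below the median gene level of 6.407 in all groups. Pnpla3, Pnpla6, Pnpla8, Lipe and Lipa were called in none of the comparisons, with log2 differences under 0.3 in size in each on their brightest probe sets. Between HFGC and HFCC no member and 0% of all genes were called. At an unadjusted p below 0.05 there were 0 of the 7 members other than Pnpla7, against 2.55% of all genes. Between HFGC and HFDC none of these 7 was called, where 0.0385% of all genes were, and 1 of the 7 had an unadjusted p below 0.05, against 6.74%.

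Over the 15 arrays, Mgll ran with Lipa (r = 0.92), with Pnpla2 (r = 0.72) and with Pnpla7 (r = 0.66). After the group means were removed these were 0.85, 0.42 and 0.39, and the arrays share their diets and RNA quality. HFDC replicate 1 was the highest of its group for Pnpla2, Pnpla7, Mgll and Lipa. Of 9097 genes at or above the median level, those most like Pnpla7 were Ldha, a lactate dehydrogenase subunit (r = 0.92), Ehhadh, a peroxisomal beta-oxidation enzyme (r = 0.92), Elovl2, a fatty acid elongase (r = 0.92), Rhpn2 (r = 0.90) and Ephx2, an epoxide hydrolase (r = 0.89). Ehhadh averaged 12.61 in HFGC, 13.26 in HFDC, 12.30 in HFCC, 12.46 in HF and 13.60 in ND, which is the order of the Pnpla7 means too. Ehhadh was picked for its likeness to Pnpla7 over these same arrays, so the shared order is a description and no separate evidence. The genes most like Pnpla3 were Dnajb1 (r = 0.87), Rbmxl1 (r = 0.86), Uspl1 (r = 0.86), Mavs (r = 0.85) and Cybc1 (r = 0.83).

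**Figure D4:**
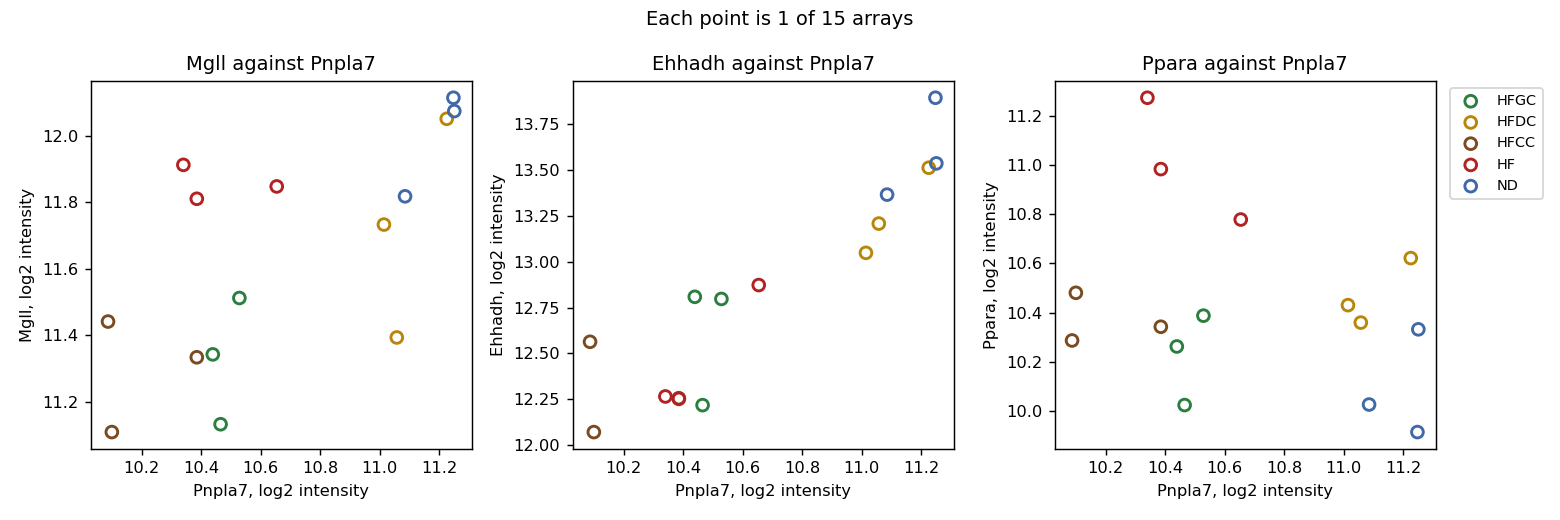
Log2 intensity of Mgll, Ehhadh and Ppara (vertical axes) against that of Pnpla7 (horizontal axis) in the 15 arrays, marked by group. Ehhadh rises with Pnpla7 (r = 0.92), Mgll does so less closely (r = 0.66), and 1 HFCC circle lies under an HF circle in the Ehhadh panel.

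A further 5 lists of related genes were followed beside the 8. Of the partners of Pnpla2 on the lipid droplet, 7 of 8 were measured. In HF against ND, where 13.5% of all genes were called, 1 was higher, G0s2, which inhibits Pnpla2 (log2 difference 0.75, adjusted p = 0.042). For the coffee groups together against HF, where 10.3% of all genes were called, 2 were lower, the droplet proteins Plin5 (-0.47, adjusted p = 0.028) and Cidec (-0.83, adjusted p = 0.041, limma). In HFGC against HF, where 3.09% of all genes were called, 2 were lower, Plin5 (-0.60) and the Pnpla2 activator Abhd5 (-0.35). The list median was 0.12 in HF against ND and -0.29 in the coffee groups together, against -0.002 and 0.007 over all genes.

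Of the other acylglycerol lipases, 11 of 14 were measured. In HF against ND 2 were higher, endothelial lipase Lipg (0.79) and Abhd12 (0.36), and in the coffee groups together 2 were lower, Abhd12 (-0.23) and the fatty acid amide hydrolase Faah (-0.27). Over all genes, 13.5% were called in HF against ND and 10.3% in the coffee groups together. Of the genes of lysophospholipid breakdown, all 9 were measured. In HF against ND 3 were higher, Lypla2, Lyplal1 and Pla2g15 (0.27, 0.40 and 0.44), and in the coffee groups together 2 were lower, Lypla2 (-0.23) and Pla2g6 (-0.46). Pnpla7, which acts on lysophosphatidylcholine, stood lower in HF than in ND. Of the 9 genes of that list, 6 had a higher mean in HF than in ND and 3 a lower one (Lypla1, Gpcpd1 and Gdpd1). The list median was 0.10.

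Of the 10 genes listed with the lysosomal route, in which Lipa acts, 5 were higher in HF than in ND. They were the cholesterol carrier Npc2 (0.48), the channel Mcoln1 (0.40), the membrane protein Lamp1 (0.27), the protease Ctsd (0.43) and Nceh1 (0.88). Nceh1 is the neutral cholesterol ester hydrolase, which is not a lysosomal enzyme. Over all genes, 13.5% were called in HF against ND and 10.3% in the coffee groups together. In the coffee groups together 2 of the 10, Npc2 (-0.32) and Ctsd (-0.33), were lower than in HF. Lipa itself differed by -0.01 between HF and ND on its brightest probe set and by 0.13 and 0.15 on 1423140_at and 1423141_at, none of them called.

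Of 7 transcription factors known to act on these genes, 2 were higher in HF than in ND, where 13.5% of all genes were called. They were the nuclear receptors Ppara (0.92, adjusted p = 0.0016) and Pparg (0.88, adjusted p = 0.0036, limma). Ppara was lower than in HF by log2 differences of -0.79 in HFGC, -0.54 in HFDC and -0.64 in HFCC, and Foxo1, a forkhead factor of fasting, by -0.56, -0.42 and -0.58 in the same groups. All 6 of these passed the test (limma), against 3.09% of all genes in HFGC, 5.02% in HFDC and 1.64% in HFCC. Over the 5 lists, HF against ND and the comparisons against HF gave 37 calls, of which 5 were kept without each array in turn. When the RNA quality value entered the model, all 37 were lost, and 31 were lost without HF replicate 2.

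Markers of other cell types were followed in the same arrays. Of 6 adipocyte markers 4 were measured, Adipoq lay near the bottom of the intensity range (group means 3.69 to 3.82), and the summed level was 8.59 to 8.98 in HFGC, 8.68 to 9.48 in HFDC, 9.06 to 10.21 in HFCC, 9.48 to 9.77 in HF and 8.80 to 9.996 in ND. The 7 macrophage markers summed to 12.08 to 12.56 in HFGC, 12.42 to 12.70 in HFDC, 12.11 to 13.14 in HFCC, 12.54 to 12.70 in HF and 11.94 to 12.53 in ND. No adipocyte or macrophage marker was called in HF against ND or in the coffee groups together against HF, and at an unadjusted p below 0.05 there were 0 adipocyte and 1 macrophage marker in HF against ND and 0 of either in the coffee groups together. In HF against ND, 3 of 6 stellate cell markers, 1 of 5 endothelial markers and 1 of 4 measured pancreatic acinar markers were higher. Over all genes, 13.5% were called in HF against ND and 10.3% in the coffee groups together. The stellate markers summed to 10.90 to 11.16 in HF and 10.33 to 10.73 in ND, and the acinar markers to 9.22 to 9.67 in the 4 high-fat groups and 8.74 to 8.94 in ND. Of the acinar markers, Cela1 averaged 8.99 in HF and 8.09 in ND, while the means of Cpa1, Prss2 and Ctrb1 lay below those of ND (list median -0.10). The endothelial marker Stab2 was lower than in HF in HFGC (-0.40), in HFDC (-0.39) and in the coffee groups together (-0.36, limma). The endothelial list as a whole was not lower throughout. Of its 5 markers, 3 had a higher mean than in HF in HFDC and in the coffee groups together, and 2 in HFGC. The list medians were 0.03 in HFDC, 0.03 in the coffee groups together and -0.02 in HFGC. Of all genes, 3.09% were called in HFGC against HF and 5.02% in HFDC against HF. In HFGC against HF, 20.6% of all genes had an unadjusted p below 0.05. So did 1 adipocyte marker, Fabp4 (-1.01, adjusted p = 0.121, limma), and 1 macrophage marker, Clec4f (-0.43, adjusted p = 0.153). In that comparison, 2 of the 4 measured adipocyte markers had a higher mean in HFGC and 2 a lower one (list median -0.0003). Of the 7 macrophage markers, 2 were higher and 5 lower (list median -0.06). The part of the markers in the values of the 8 genes was not tested. The marker calls were not refitted with the RNA quality value or without single arrays, so whether they depend on either was not tested.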

How the data were processed

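Liver RNA of 15 mice, 3 per diet group, was hybridised to Affymetrix GeneChip mouse genome arrays. The deposited table holds intensity values that the authors made with RMA (background correction, quantile normalisation and summarisation over probes). They are on a linear scale. Which program ran RMA is not given in the sources used here. Array medians were 48.45 to 49.95, and with 3 arrays a group the median SE of a log2 difference between 2 groups was 0.092. Columns were mapped to groups from the labels.

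Log2 of the intensity was taken. Of 45101 probe sets, 64 control, 932 with several symbols and 9211 without a symbol in the annotation were not used as genes, and the brightest of the remaining 34945 represented each of 18193 genes. All 5 group means were fitted in 1 model with limma 3.58.1 (R 4.3.3), with Benjamini-Hochberg adjustment over all genes and calls at 0.05. The code was tested on simulated data. The alternatives were averaged or all probe sets, a filter at the median level, cyclic loess, an offset of 32, the compared groups alone, the replicate block, the trend and robust options of limma, a threshold of 0.10, the RNA quality value (3' minus 5' control signal) in the model, and each array left out.

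The members and lists were chosen with earlier results of these data known. All 8 members are reported. Fold change, SE and adjusted p are given where a member was called or differed by at least 0.3 (log2), except for Pnpla7 with HFDC or HFCC arrays (values only), and any called list gene may be named. The 5 genes with the highest Pearson r to Pnpla7 and Pnpla3 are named. Promoter windows came from RefSeq (GRCm38.p6) and covered all 8 genes.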

Additional observations from a re-analysis of the deposited data

Results flagged for a closer look

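Pnpla7 is listed because the rule for this list kept members with an adjusted p below 0.05 between HFGC and another coffee group. Its log2 difference between HFGC and HFDC was -0.62 (n = 3 arrays each). The HFGC arrays all lay below the HFDC arrays. The HFDC arrays also took part in choosing Pnpla7, so meeting the rule is no evidence for the gene and the value is a description. Over the 15 fits that left out 1 array the difference was -0.66 to -0.56.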

How the results depend on the processing

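Among the summary counts and the genes recomputed under the alternatives, no difference changed sign, though single probe sets of Mgll (HFDC against HF) and Lipa (HF against ND) did. For most alternatives the share of all genes called was not recorded, so a changed count is not read as a result about the members. The counts in this section include Pnpla7, which was chosen on the HFDC and HFCC arrays. Between HFGC and HFDC it was the only member counted under any setting, so the counts there are no test of it. Where other comparisons use HFDC or HFCC arrays, its share of the counts is likewise a description. When the RNA quality value (3' minus 5' signal) entered the model, 0 members were called in HFDC against HF, in the coffee groups together against HF, in HF against ND and in HFGC against HFDC. HFGC against HFDC also had 0 calls with averaged probe sets, with all probe sets, with an offset of 32 and with the compared groups alone. The compared groups alone gave 0 calls in HFDC against HF and 1 in HFGC against ND. A filter at the median level gave 1 call in HFGC against HF and 1 in HFCC against HF. Cyclic loess gave 2 calls in the coffee groups together. A threshold of 0.10 gave 1 call in HFGC against HF, 2 in HFDC against HF, 1 in HFCC against HF and 4 in the coffee groups together. The causes were not tested.

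Same-numbered arrays of different groups did not deviate together (r = -0.28 to 0.23 over 30 pairs), so the numbers were not taken as pairs. With the replicate block, Mgll was called in HFGC against HF (1 member called, adjusted p = 0.045, limma) and in HFCC against HF (1 member called, adjusted p = 0.046), and HFGC against HFDC had 0 calls.

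Leaving out 1 array at a time, the members called were 0 to 1 in HFGC against HF, 0 to 3 in HFDC against HF, 0 to 2 in HFCC against HF, 0 to 3 in the coffee groups together, 1 to 3 in HF against ND, 1 to 2 in HFGC against ND, 0 to 1 in HFDC against ND, 1 to 3 in HFCC against ND and 0 to 1 in HFGC against HFDC. Without HF replicate 1, Lipe was called in HFGC, HFDC and HFCC against HF and in HF against ND, and Pnpla8 in HFDC against HF and in HF against ND. Without HF replicate 2, 0 members were called in HFDC, HFGC or HFCC against HF or in the coffee groups together. Without HFDC replicate 1, Pnpla2, Mgll and Lipa were called in the coffee groups together. With 3 arrays a group, differences near the SE could not be resolved.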
